A study of Mus musculus with 5 samples.

Results

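Mitochondrial tRNAs were followed in mouse embryonic stem cells of the OG2 line that had received siRNA to Dhx30 or to Tfam, with the tRNA genes grouped by the strand of the mitochondrial genome that codes them. The members were the 10 rows named for mitochondrial tRNAs other than tRNA-Leu1 (mt-Tl1), out of 12930 genes in the deposited table, and the rule that names them uses no measured value, although it was set with earlier results of these data known. On the plus strand of the reference lay 7 of them, mt-Ti, mt-Tm, mt-Tw, mt-Tk, mt-Th, mt-Tl2 and mt-Tt (deposited as MT-TI, MT-TM, MT-TW, MT-TK, MT-TH, MT-TL2 and MT-TT). On the minus strand lay 3, mt-Ts1, mt-Te and mt-Tp (MT-TS1, MT-TE and MT-TP). All 10 had a value in every siRNA library. GENCODE M21 annotates 22 mitochondrial tRNA genes, 14 on the plus and 8 on the minus strand. Of these, 12 had a row, the others being mt-Tl1 and mt-Ty, and the remaining 10 were not analysed here. Tyrosine tRNA, mt-Ty, is coded on the minus strand but is not among the named members. Its values are given separately.

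The series holds 5 RNA-seq libraries of total RNA: 2 labelled siDhx30, 2 labelled siTfam and 1 labelled NC, the negative control. All came from cells of the strain given as (CBA/CaJxC57BL/6J) with 129Sv/Jae, held for 24 h in medium with LIF and inhibitors, then given 50 nM siRNA while moved for 36 h to medium with bFGF and Activin A. The cells are of 1 line. Nothing in the labels ties the replicates to separate cultures, so a p-value here speaks for these libraries only. It rests on the spread between libraries, moderated over all genes, and that spread may be technical.

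The mitochondrial genome is a small circle whose strands are each copied into long precursor RNAs that span many genes. The tRNAs lie between the rRNAs and mRNAs in these precursors and are cut out by RNase P at their 5′ ends and ELAC2 at their 3′ ends, which also frees the flanking mRNAs. Each mature tRNA then receives its CCA end, base modifications and amino acid for translation of the respiratory-chain proteins coded in the mitochondrion. TFAM packages mitochondrial DNA and is needed to start its transcription, and DHX30 is an RNA helicase of mitochondrial RNA granules, where newly made RNA is handled.

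The 3 minus-strand members and the plus-strand members with the widest spread (mt-Tk), the highest mean ratio (mt-Tt) and the largest difference between siRNAs (mt-Tw) are shown, because the results turn on them. Sequences are the GENCODE M21 transcripts on GRCm38, written 5′ to 3′ as DNA letters of the coding strand, with the anticodon in capitals. The anticodon was located by its 3 letters at the place where the bases around it could form the best anticodon stem.

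mt-Ts1: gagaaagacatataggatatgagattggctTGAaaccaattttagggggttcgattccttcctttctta
mt-Te: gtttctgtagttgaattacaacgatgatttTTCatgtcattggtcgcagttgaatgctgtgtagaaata
mt-Tp: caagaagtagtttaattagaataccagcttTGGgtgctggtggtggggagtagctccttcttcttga
mt-Tk: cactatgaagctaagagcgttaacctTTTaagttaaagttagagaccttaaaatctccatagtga
mt-Tt: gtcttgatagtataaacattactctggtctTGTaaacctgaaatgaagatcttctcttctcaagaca
mt-Tw: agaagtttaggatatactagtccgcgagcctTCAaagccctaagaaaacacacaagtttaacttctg

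The serine tRNA gene mt-Ts1 (ENSMUSG00000064352.1) lies at chrM:6870-6938 on the minus strand and overlaps by 3 bases the end of mt-Co1, which is coded on the other strand. The glutamate tRNA gene mt-Te (ENSMUSG00000064369.1) lies at chrM:14071-14139 on the minus strand, directly beside mt-Nd6 of the same strand and 5 bases from mt-Cytb of the other. The proline tRNA gene mt-Tp (ENSMUSG00000064372.1) lies at chrM:15356-15422 on the minus strand and abuts, without a gap, the threonine tRNA gene mt-Tt (ENSMUSG00000064371.1) at chrM:15289-15355 on the plus strand. The lysine tRNA gene mt-Tk (ENSMUSG00000064355.1) lies at chrM:7700-7764 between mt-Co2 and mt-Atp8, and the tryptophan tRNA gene mt-Tw (ENSMUSG00000064346.1) at chrM:4950-5016, overlapping mt-Nd2 by 2 bases. The other plus-strand members are the isoleucine tRNA gene mt-Ti at chrM:3706-3774, the methionine tRNA gene mt-Tm at chrM:3845-3913, the histidine tRNA gene mt-Th at chrM:11546-11612 and the leucine tRNA gene mt-Tl2 at chrM:11671-11741.

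Guanine content separated the strands, and length did not. Guanine made up 23.2% to 29.9% of the minus-strand members and 11.9% to 18.8% of the plus-strand members, so the ranges did not overlap. Cytosine made up 11.6% to 14.9% and 11.6% to 26.1%, and lengths ran from 67 to 69 and from 65 to 71 bases. No annotated nuclear transcript shared a run of 30 bases with any member on either strand. Nuclear sequence outside annotated transcripts was not searched. Whether reads were assigned by strand is not given in the sources used here. Without strand, a read over mt-Ts1 cannot be told apart from one of the plus-strand precursor that runs opposite to it, and the same holds for every member. Reads that run from a tRNA into its neighbour also bear on these short genes, and their part in the values was not tested. Whether the reads came from mature tRNAs or from precursor RNA was not tested either.

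Each value below is the log2 ratio of 1 siRNA library over the single NC library, which lies at 0 on this scale. The headings do not give the direction. The deposited signs were turned round, because all 1574 deposited values of the 842 genes with a missing value elsewhere were below 0. A filter that keeps a gene where NC or the siRNA library reaches a minimum gives this pattern when the ratio is NC over siRNA. Other kinds of filter were not tried, and if the inference is wrong every direction below is reversed. Read depth is unknown, and all 4 ratios of a gene share the same NC measurement. The targeted transcripts showed no established knockdown: Dhx30 lay at -0.40 and -0.20 in the siDhx30 libraries (limma adjusted p = 0.998) and Tfam at -0.28 and -0.02 in the siTfam libraries (limma adjusted p = 0.987). Of 18 embryonic stem cell markers 7 were tested, and Pou5f1, Sox2 and Nanog were not analysed here, so the labelled cell type could not be checked on its defining genes. Primitive endoderm markers (5 of 9 tested) had a median of -0.21 in siDhx30 and -0.70 in siTfam, and feeder markers (3 of 9 tested) one of -0.15 and -0.32. The 7 stem cell markers tested had a median of 0.04 in siDhx30 and -0.14 in siTfam. Gata4, Sox17 and Pdgfra of the endoderm list and Col1a1, Col3a1 and Pdgfrb of the feeder list were not analysed here. Whether such cells were present could thus not be established. The part of any such cells in the tRNA values was not tested. In bulk RNA, fewer cells of a type and less RNA per cell cannot be told apart.

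Relative to NC, the minus-strand members went different ways: mt-Ts1 and mt-Te lay below NC in every siRNA library, and mt-Tp lay above it in all but 1. The plus-strand members mt-Ti and mt-Tl2 also lay below NC in every library. The share of all genes on the same side of NC in every library was not computed. Such agreement, here or below, is therefore not read as a result about the tRNAs. Both siDhx30 libraries lay below NC for 34.9% of all genes, and both siTfam libraries for 34.4%. The ratio of mt-Ts1, which reads UCN serine codons, was -3.88 in siDhx30 replicate 1 and -0.18 in its replicate 2, while the siTfam replicates gave -3.19 and -0.63. Both libraries numbered 1 were far below both numbered 2, and the siRNA groups overlapped. The mean was -2.03 in siDhx30 (SE 1.98; 95% interval -7.57 to 3.52) and -1.91 in siTfam (SE 1.98; -7.45 to 3.64). The limma adjusted p was 0.998 and 0.986. Each SE and interval against NC is that of the limma difference of 2 siRNA libraries from 1 NC library. The spread is estimated over both siRNA groups and then moderated by limma toward that of all genes. An SE is thus not that of the member's own libraries alone. The size of the mt-Ts1 mean thus came from the replicate 1 libraries. Without siDhx30 replicate 1 the siDhx30 value was -0.18, and without siTfam replicate 1 the siTfam value was -0.63.

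The ratio of mt-Te, the glutamate tRNA, was -1.001 in siDhx30 replicate 1 and -0.34 in its replicate 2, while the siTfam replicates gave -1.13 and -0.19. Here too both libraries numbered 1 were the lower ones, and the siRNA groups overlapped. The means, -0.67 (SE 0.53) and -0.66 (SE 0.53), correspond to 62.9% and 63.2% of NC, with 95% intervals of 22.3% to 177% and 22.4% to 178% (limma adjusted p = 0.998 and 0.974). The ratio of mt-Tp, the proline tRNA, was 0.32 and -0.01 with the Dhx30 siRNA, against 0.29 and 0.44 with the Tfam siRNA. These 4 values lay close together, and the SE of 0.24 was the smallest of any member. The means were 0.15 and 0.36, or 111.2% and 128.4% of NC (limma adjusted p = 0.998 and 0.954). For mt-Ty, the minus-strand tRNA outside the named set, the siDhx30 libraries gave 0.51 and 2.97 while the siTfam libraries gave -0.33 and 0.21 (limma adjusted p = 0.998 and 0.997).

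**Figure D1:**
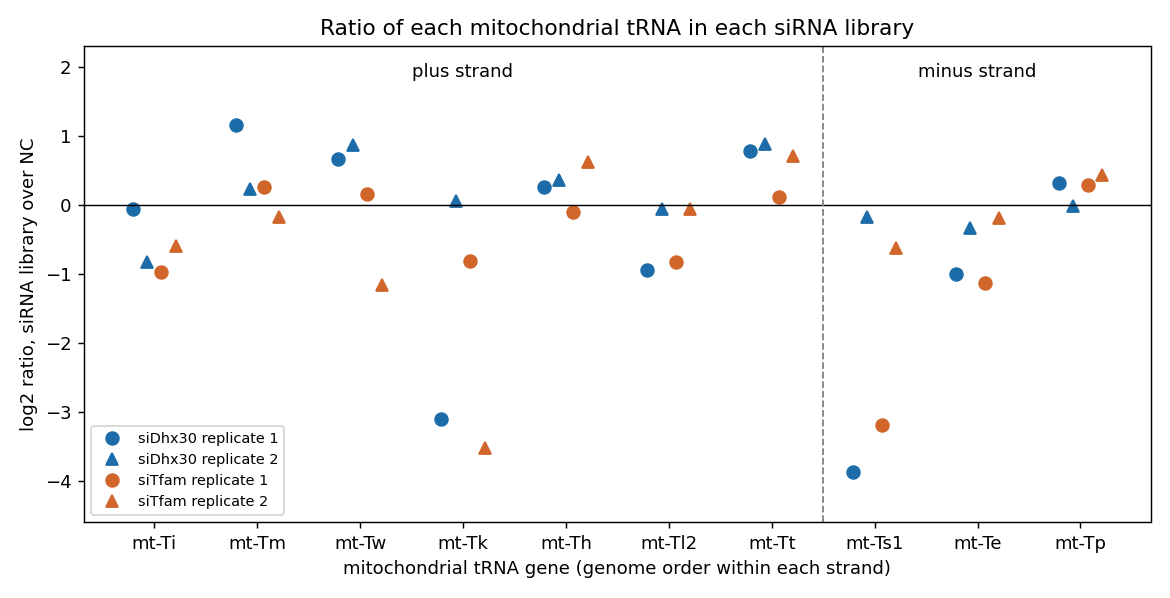
Log2 ratio over NC (vertical axis) of each of the 10 mitochondrial tRNAs (horizontal axis, plus-strand genes left of the dashed line), with circles for replicate 1, triangles for replicate 2, blue for siDhx30 and orange for siTfam. The lowest points belong to mt-Ts1 in both replicate 1 libraries (-3.88 and -3.19) and to mt-Tk in siDhx30 replicate 1 and siTfam replicate 2 (-3.10 and -3.52).

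Among the plus-strand members, mt-Tt, mt-Tw, mt-Tm and mt-Th lay above NC in both siDhx30 libraries. The threonine tRNA mt-Tt had ratios of 0.78 and 0.88 after siDhx30 against 0.11 and 0.71 after siTfam, above NC in all 4 libraries. Its siDhx30 mean of 0.83 (SE 0.32, 2 libraries against 1) equals 177.8% of NC, with a 95% interval from 96.3% to 328.3%. Its siTfam mean of 0.41 equals 132.9% (72.0% to 245.3%). It did not pass (limma adjusted p = 0.998 and 0.974), although its unadjusted p in siDhx30, 0.0596 by limma, was the smallest of any member. The tryptophan tRNA mt-Tw had ratios of 0.66 and 0.87 after siDhx30, against 0.16 and -1.16 after siTfam. Its siDhx30 libraries were close to each other, whereas the siTfam libraries fell on either side of NC. The means were 0.76 and -0.50, with an SE of 0.61 (limma adjusted p = 0.998 and 0.987).

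The methionine tRNA mt-Tm, which serves both to start and to extend mitochondrial proteins, had ratios of 1.16 and 0.22 after siDhx30, against 0.25 and -0.18 after siTfam. The siDhx30 replicate 1 value stood above the other 3, and the groups overlapped. The histidine tRNA mt-Th had ratios of 0.26 and 0.35 after siDhx30, against -0.10 and 0.61 after siTfam, so that the siDhx30 values lay within the siTfam range. Means were 0.69 and 0.04 for mt-Tm (SE 0.48) and 0.31 and 0.25 for mt-Th (SE 0.36), with limma adjusted p from 0.987 to 0.998.

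The remaining plus-strand members, mt-Ti, mt-Tl2 and mt-Tk, lay mostly below NC. The isoleucine tRNA mt-Ti had ratios of -0.06 and -0.83 after siDhx30, against -0.97 and -0.60 after siTfam. All 4 values were below NC and the groups overlapped, with means of -0.45 and -0.79 (SE 0.41; limma adjusted p = 0.998 and 0.911). The leucine tRNA mt-Tl2, which reads CUN codons, had ratios of -0.94 and -0.06 after siDhx30, against -0.83 and -0.06 after siTfam. As for mt-Te and mt-Ts1, the libraries numbered 1 were the low ones, and those numbered 2 lay almost at NC. The lysine tRNA mt-Tk had ratios of -3.10 and 0.06 after siDhx30, against -0.81 and -3.52 after siTfam. Its low values came from a replicate 1 and a replicate 2 library, 1 in each siRNA group. The means of mt-Tk, -1.52 and -2.17, had an SE of 1.83 and 95% intervals from 0.994% to 1220% and from 0.635% to 779% of NC. Without siDhx30 replicate 1 the siDhx30 value of mt-Tk turned to 0.06, and without siTfam replicate 2 the siTfam value was -0.81.

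No member passed in either comparison with NC. The limma call at an adjusted p of 0.05 was made for 0 of 10 members, against 0% of all 12088 genes tested in siDhx30 and 0% in siTfam. At an unadjusted p of 0.05 the member count was also 0, against 609 genes (5.04%) in siDhx30 and 739 genes (6.11%) in siTfam. Both siDhx30 libraries were above NC for 4 of 10 members, all on the plus strand, where 32.1% of all genes were, and both were below NC for 4 of 10, 2 on each strand, where 34.9% of genes were. Both siTfam libraries were above NC for 2 members (mt-Tt and mt-Tp), with a background of 32%, and below NC for 5 (mt-Ti, mt-Tk, mt-Tl2, mt-Ts1 and mt-Te), with a background of 34.4%. With 10 members these shares lie near the background and are not read as a result about the tRNAs.

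As groups, the strands overlapped in every library. The median ratio of the 7 plus-strand members was 0.26 in siDhx30 replicate 1, 0.22 in siDhx30 replicate 2, -0.10 in siTfam replicate 1 and -0.18 in siTfam replicate 2. The median of the 3 minus-strand members, in the same order, was -1.001, -0.18, -1.13 and -0.19. Over all 12088 genes these medians lay between -0.015 and -0.0057. The minus-strand median of these 3 genes was the lower one in each library, but the order turned in siTfam replicate 2 when mt-Ty was added (0.0078) or mt-Ts1 was left out (0.12), both choices made after the values were seen. Minus less plus, the medians differed by -1.26, -0.40, -1.03 and -0.015 in the same order. With 3 genes this median is the value of 1 gene, mt-Te or mt-Ts1. Of the 7 plus-strand values 4, 1, 7 and 3 lay between the lowest and the highest minus-strand value in these libraries.

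**Figure D2:**
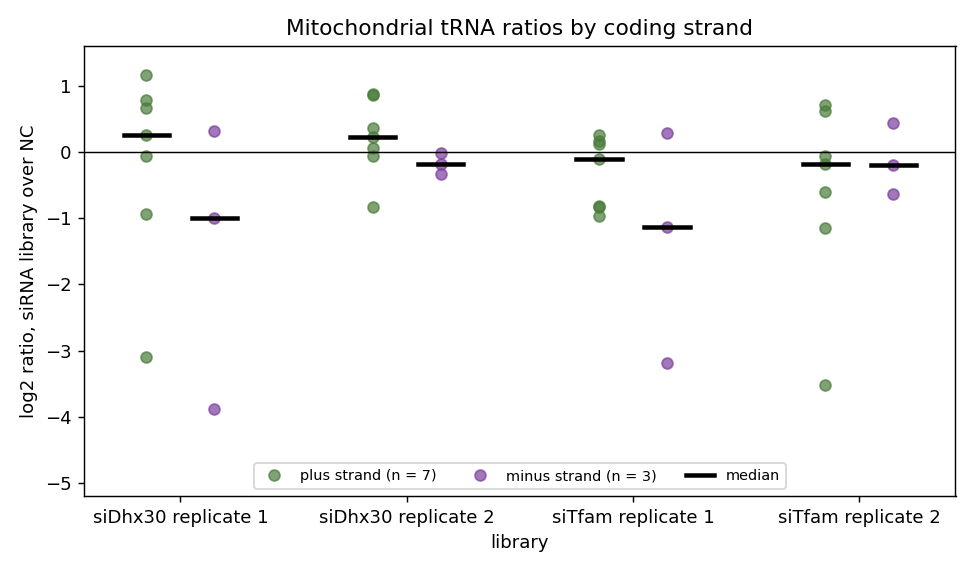
Log2 ratio over NC (vertical axis) of the 7 plus-strand (green) and 3 minus-strand (purple) mitochondrial tRNAs in each siRNA library (horizontal axis), with black bars at the medians. The minus-strand bar lies lower, by a difference of -1.26 and -1.03 in the replicate 1 libraries and -0.40 and -0.015 in the replicate 2 libraries, and the points of the strands overlap in all 4.

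Taken on group means, the plus-strand median was 0.31 in siDhx30, with 4 of 7 members above 0, and -0.45 in siTfam, with 3 of 7 above 0. The minus-strand median was -0.67 and -0.66, with 1 of 3 above 0 in each. Over all genes tested the medians were -0.01 and -0.02, with 48.1% and 47.3% of genes above 0. The plus-strand value in siTfam was lower than in either of its libraries, being -0.18 when replicate 1 was left out and -0.10 when replicate 2 was, since different genes were low in each. Leaving out the replicate 1 library took the minus-strand value to -0.18 in siDhx30 and -0.19 in siTfam, and leaving out replicate 2 took it to -1.001 and -1.13. With mt-Ty added to the minus-strand group, a choice made after its values were seen, the minus-strand medians were -0.26 and -0.36, and the siTfam one then lay above the plus-strand median.

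The difference between replicates exceeded the all-gene median for 7 of the 10 tRNAs in siDhx30 and for 9 of 10 in siTfam. The absolute difference between replicates 1 and 2 had a median of 0.71 over the 10 members in siDhx30, against 0.23 over all genes, and of 0.74 in siTfam, against 0.24. In siDhx30 2 members differed by more than 1 between replicates, as did 6.65% of all genes. In siTfam 3 members did, as did 8.09% of all genes. For mt-Ts1 the difference was 3.70 in siDhx30, with 99.9% of genes differing less, and 2.56 in siTfam, with 99.4% differing less. For mt-Tk it was 3.16 and 2.71, with 99.8% and 99.5% of genes differing less. At the other end, mt-Tt differed by 0.09 in siDhx30, with 22.8% of genes differing less, and mt-Tp by 0.15 in siTfam, with 34.0%. Among the 4 other mitochondrially encoded rows, only mt-Ty in siDhx30 differed by more than 1. The replicate difference in siDhx30 was 0.13 for mt-Rnr1, 0.23 for mt-Rnr2, 0.04 for mt-Tl1 and 2.46 for mt-Ty, and in siTfam it was 0.04, 0.25, 0.15 and 0.53. How many reads lay behind each ratio is unknown, and the part of depth in this spread was not tested.

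**Figure D3:**
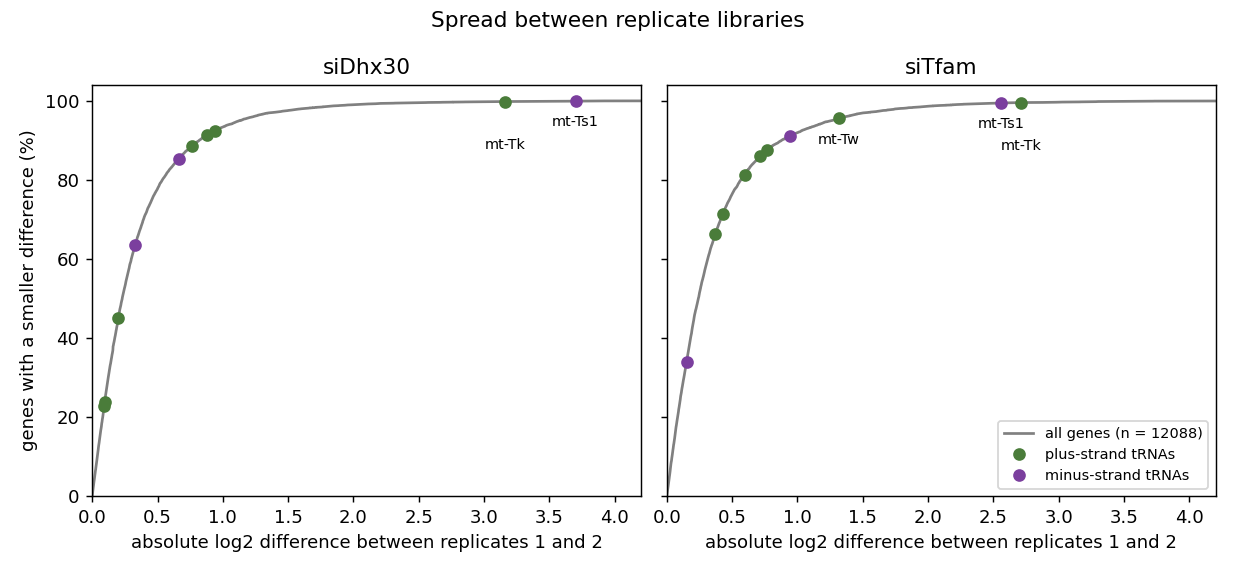
Share of all 12088 genes with a smaller replicate difference (vertical axis, %) against the absolute log2 difference between replicates 1 and 2 (horizontal axis), for siDhx30 (left) and siTfam (right). The grey curve is all genes and the dots are plus-strand (green) and minus-strand (purple) tRNAs. The names mt-Ts1, mt-Tk and mt-Tw mark members that differ by more than 1, with mt-Ts1 and mt-Tk at the far end in both groups.

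The direct comparison of siDhx30 with siTfam does not involve the NC library and has 2 libraries on each side. The largest difference was that of mt-Tw, 1.26 higher in siDhx30 (SE 0.50; 95% interval -0.13 to 2.66; limma adjusted p = 0.999), with both siDhx30 libraries above both siTfam libraries. It was 0.60 when siTfam replicate 2 was left out and 1.92 when siTfam replicate 1 was. The difference of mt-Tt was 0.42 (SE 0.26; -0.30 to 1.14; limma adjusted p = 0.999), again without overlap, and it was 0.12 when siTfam replicate 2 was kept alone and 0.72 when siTfam replicate 1 was. These were the 2 members of 10 with siDhx30 wholly above siTfam, where 14.7% of all genes were, and 0 members were wholly below, where 14.3% of genes were. For mt-Tm the difference was 0.65 (SE 0.39), for mt-Tk 0.65 (SE 1.49) and for mt-Ti 0.34 (SE 0.34). The mt-Tm difference was 0.18 when siDhx30 replicate 1 was left out and 1.12 when siDhx30 replicate 2 was.

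For the minus-strand members the mean differences lay near 0, with wide intervals for mt-Ts1 and mt-Te. The difference was -0.0079 for mt-Te (95% interval -1.23 to 1.21), -0.12 for mt-Ts1 (-4.65 to 4.41) and -0.21 for mt-Tp (-0.74 to 0.33). For mt-Tl2 it was -0.05 (-1.29 to 1.18) and for mt-Th 0.05 (-0.78 to 0.88). The mt-Tp interval was the narrowest of these and still spans 59.8% to 125.3% of the siTfam level. None of these intervals excludes a sizeable difference. The limma call was made for 0 of 10 members and 0% of all genes, and at an unadjusted p of 0.05 for 0 members and 337 genes (2.79%).

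The plus-strand median difference was 0.42, with 6 of 7 members higher in siDhx30, and the minus-strand median was -0.12, with 0 of 3 higher, against -0.0015 and 49.8% over all genes. In the same comparison the primitive endoderm markers had a median of 0.49, with 5 of 5 higher, and the feeder markers one of 0.37, with 2 of 3 higher. The part of any such cells in the tRNA differences was not tested. Leaving out siTfam replicate 1 took the plus-strand median to 0.15, and leaving out siTfam replicate 2 to 0.44. The minus-strand median turned to 0.32 when siDhx30 replicate 1 was left out and to 0.46 when siTfam replicate 2 was. It was -0.34 when siDhx30 replicate 2 was left out and -0.48 when siTfam replicate 1 was. With mt-Ty, at 1.79 (SE 0.91), it was -0.06, with 1 of 4 higher.

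**Figure D4:**
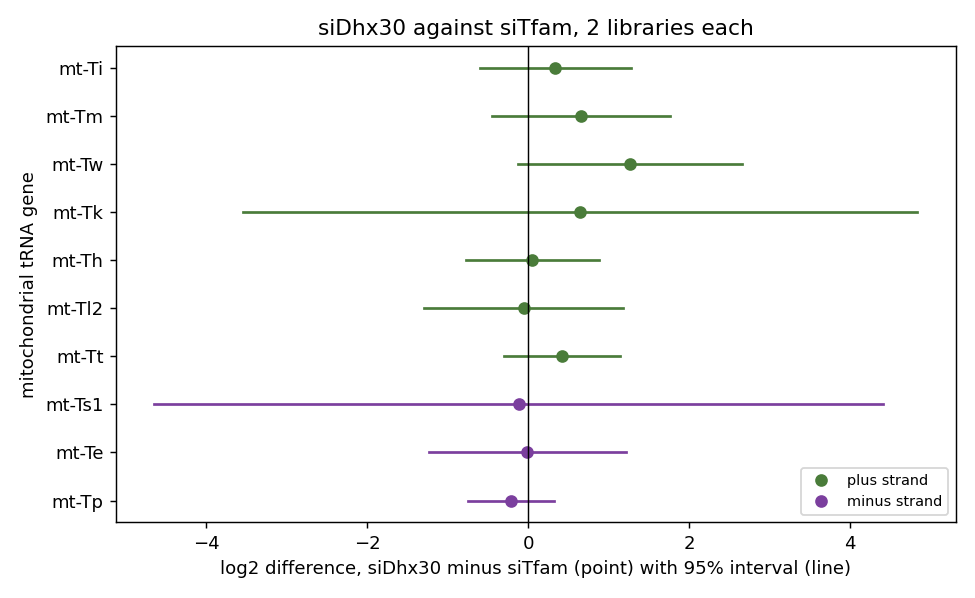
Log2 difference of siDhx30 minus siTfam (horizontal axis; point, with its 95% interval from limma as a line) for each mitochondrial tRNA (vertical axis), plus strand in green and minus strand in purple. Every interval includes 0, mt-Tw lies farthest from it at 1.26, and the intervals of mt-Tk and mt-Ts1 are the widest.

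Patterns across the 4 libraries were compared among the 14 mitochondrially encoded rows by Euclidean distance between their log2 ratios, as a description. These rows are tRNA and rRNA genes. Of the 13 mitochondrially encoded protein-coding genes in GENCODE M21, 0 were matched to a row by name. A flanking mRNA could thus not be a closest match. The closest match of mt-Te was mt-Tl2 and the reverse, at a distance of 0.43, although they lie on opposite strands. The closest match of mt-Th was mt-Tp and the reverse, at 0.57, again on opposite strands. The neighbours mt-Tt and mt-Tp were not each other's closest match: for mt-Tt it was mt-Th, at 0.78. The match for mt-Ti was the large rRNA mt-Rnr2, at 0.89. For mt-Ts1 and mt-Tk the closest rows were as far as 3.57 and 3.83 away. The closest row was on the same strand for 4 of the 10 members. The share that the strand make-up of the rows alone would give was not computed, so this count decides nothing about strand. Over the 10 members, the mean ratio had a Spearman rho of 0.25 with GC content in siDhx30 and 0.24 in siTfam, and of 0.04 and 0.54 with position on the genome. These points share the NC library and their depth is unknown.

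Nuclear genes that make, modify and charge mitochondrial tRNAs were read from the same fit. In the 3 comparisons 0 of them passed in either direction. Of all 12088 genes tested 0% passed in each comparison, so this count says nothing particular about these genes. Of 8 genes for cutting and finishing tRNAs, 5 were tested, with a median of 0.06 in siDhx30 and -0.10 in siTfam. By the mean over all 4 libraries, the gene farthest from 0 was Tbrg4, of the FASTK family of mitochondrial RNA factors, at -0.14 and -0.30, and -0.02 and -0.17. Of 23 genes for tRNA base modification or formylation 21 were tested, with medians of 0.03 and -0.03. The farthest was Nsun4, an RNA methyltransferase gene better known for the small mitochondrial rRNA, at 0.70 and 0.43, and 0.79 and 0.17. Of 23 genes for mitochondrial transcription, RNA stability and decay 18 were tested, with medians of -0.05 and -0.05. Grsf1, which encodes a binding protein of G-rich mitochondrial RNA, lay farthest out, with ratios of -1.66 and -1.29 after siDhx30 against -1.47 and -1.09 after siTfam (limma adjusted p = 0.673 and 0.676).

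Among the tested synthetases that load the 10 tRNAs, Lars2 lay farthest from NC. Of 22 genes for charging 20 were tested, with medians of -0.04 in siDhx30 and 0.05 in siTfam, and of the 10 cognate synthetases 9 were tested. All 4 values lay within 0.5 of NC for 5 of these 9, Ears2, Hars2, Iars2, Kars and Tars2, and for 1 of the 10 tRNAs, mt-Tp. The share of all genes within 0.5 was not computed. The median replicate difference of the tRNAs, 0.71 in siDhx30 and 0.74 in siTfam, itself exceeds 0.5. These counts are therefore not read as a difference between tRNAs and enzymes. Lars2, the leucine enzyme, had ratios of 1.36 and 1.11 after siDhx30 against 1.12 and 1.44 after siTfam (limma adjusted p = 0.673 and 0.585). Its tRNAs, mt-Tl2 and mt-Tl1, had means of -0.50 and 0.06 in siDhx30 and -0.45 and -0.05 in siTfam. Sars2, the serine enzyme, was at -0.53 and 0.08, and -0.71 and -0.16. Pars2, the proline enzyme, was at -0.08 and -0.76, and -0.63 and -0.43. Wars2, the tryptophan enzyme, had ratios of -0.02 and 0.09 after siDhx30 against -0.40 and -0.60 after siTfam. No test was made of a link between a tRNA and its enzyme.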

How the data were processed

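Total RNA was DNase-treated, fragmented and copied with a template-switching kit, per the labels' protocols. Reads were handled with bcl2fastq, HISAT2 (GRCm38), featureCounts and DESeq2, per the submitters' processing notes, and the settings and annotation are not stated there. The values are log2 ratios that the authors deposited in 1 table with 1 column for each siRNA library, per the file headers. Depth is unknown, and intervals come from the spread between libraries, moderated over all genes.

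The sign was reversed to give siRNA over NC. The 12088 genes complete in 4 libraries were fitted with limma 3.58.1 (R 4.3.3, robust=TRUE, no trend), with Benjamini-Hochberg adjustment over all genes. The NC library entered as a column of zeros and was assumed to vary like the others (2 residual degrees of freedom). Limma moderated the spread of each gene toward that of all genes, with a median of 2.015 prior degrees of freedom. A test on simulated data required only that the fit recover the mean size of planted changes. The power of the fit to call such changes is not given here. Members and gene lists were chosen with earlier results of these data known. Named were all members, the targeted genes, other mitochondrial rows where compared, the cognate synthetases and the gene of each other list farthest from 0. Alternatives left out each siRNA library, centred libraries on all or nuclear genes, used robust=FALSE, kept genes with missing values or blocked on replicate number. Names, strands and sequences came from GENCODE M21, which matched 12660 of 12930 names. Python 3.11.15, pandas 2.3.3 and matplotlib 3.10.9 were used.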

Additional observations from a re-analysis of the deposited data

How the results depend on the processing

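The limma count of called genes was 0 in all 3 comparisons under every alternative run, and no member was called. By construction robust=FALSE, keeping genes with missing values and the replicate block cannot change a member's estimate, and centring shifts all genes alike by 0.015 at most, so these say nothing about stability. Leaving out a library of the groups compared turned the direction in 15 of 80 member values. With 2 libraries per siRNA, leaving out 1 leaves the other alone in its group, so these turns restate the differences between replicates. The cause of those differences was not tested. The ranges over the left-out libraries were as follows. Against NC in siDhx30, mt-Tk ran from -3.10 to 0.057, mt-Tp from -0.012 to 0.32 and Tfam from -0.014 to 0.12. The plus-strand median was 0.22 without siDhx30 replicate 1 and 0.26 without replicate 2, against 0.31 with both. Against NC in siTfam, mt-Tm ran from -0.18 to 0.25, mt-Tw from -1.16 to 0.16 and mt-Th from -0.10 to 0.61. The plus-strand median was -0.18 without siTfam replicate 1 and -0.10 without replicate 2, against -0.45 with both. In siDhx30 against siTfam, mt-Ti ran from -0.044 to 0.72, mt-Ts1 from -1.97 to 1.73, mt-Tk from -0.93 to 2.23, mt-Th from -0.31 to 0.41, mt-Tl2 from -0.49 to 0.39, mt-Te from -0.48 to 0.46, mt-Tm from 0.18 to 1.12, mt-Tp from -0.37 to -0.044 and the plus-strand median from 0.15 to 0.44.

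The labels do not say that a replicate number marks a shared batch, and NC carries none, so the replicate block could be fitted for siDhx30 against siTfam alone. Deviations from the group means in same-numbered libraries had a Pearson r of 0.25 across 12088 genes, which are not independent replicates. With the replicate block 0 genes were called, with 566 at an unadjusted p under 0.05 instead of 337, and the plus-strand and minus-strand medians stayed at 0.42 and -0.12. Unknown depth, 1 NC library and 2 libraries per siRNA limit every value.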
